A study of Homo sapiens with 6 samples.

Results

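Interferon-stimulated genes are the genes that cells switch on in response to interferon, the secreted alarm signal against viruses. A list of 42 of them was looked up by gene symbol in the expression table of PC9-BrM3 cells, and all 42 were found among its 58735 genes. PC9-BrM3 is a brain-metastatic derivative of the human lung adenocarcinoma line PC9, and AKR1B10, an aldo-keto reductase, was silenced in it with 1 lentiviral shRNA vector to ask what the enzyme does in metastatic cells. RNA-seq was available for 3 libraries of the silenced cells (BrM3-shAKR1B10) and 3 libraries of cells carrying a negative control shRNA (BrM3-shNC), with the genotype labelled WT in the controls. The labels give routine culture for all 6 libraries and name no interferon or drug. A single vector was used, so an effect of losing AKR1B10 and an effect of that vector cannot be told apart.

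Type I interferons bind the receptor chains IFNAR1 and IFNAR2, and the kinases JAK1 and TYK2 attached to these chains then phosphorylate STAT2. STAT2 and IRF9 act in a complex that binds a DNA word near the start of its target genes, the interferon-stimulated response element (ISRE). Its targets include RNA sensors that start the alarm, transcription factors that amplify it, enzymes and membrane proteins that block viral growth, and brakes such as USP18. Tumour cells can keep a part of this programme on without infection, and most of the listed proteins belong to its antiviral arm.

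Reads on genes ranged from 16964504 to 18709028 over the 6 libraries. Levels are given as FPKM, fragments scaled by gene length and library size, and 3 reads on 1 kb of gene were worth 0.163 to 0.177 FPKM, a limit that covers counting error only. AKR1B10 itself stood at 108.3, 107.2 and 110.2 FPKM in BrM3-shAKR1B10 against 798.7, 775.0 and 772.0 FPKM in BrM3-shNC, or 13.9% of the control mean. Among epithelial markers, KRT7, KRT8, KRT18, EPCAM and CDH1 lay between 49.2 and 867 FPKM on average, whereas the lung lineage markers NKX2-1, NAPSA and SFTPB were all under 1 FPKM. All 7 markers of immune cells, which carry strong interferon programmes of their own, lay under 1 FPKM, from 0 for HLA-DRA to 0.877 FPKM for CD14. Of 4 markers each of fibroblasts and endothelium and of neurons and glia, only COL1A1 (1.60 FPKM, log2 fold change -0.67) and MBP (2.99 FPKM, log2 fold change -0.40) passed 1 FPKM, both lower in BrM3-shAKR1B10, and their part in the results was not tested. In these bulk libraries, fewer cells with a gene on and less RNA per cell cannot be told apart.

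The ISRE was searched as GAAA, then 2 bases of any kind, then GAAA on either strand, from 250 bases before to 50 after each transcription start in the RefSeq promoter table (GRCh38.p14). Of the 42 genes, 34 had an entry, and 23 of these 34 (67.6%) held the letters, against 1195 of 27305 genes in the whole table (4.38%) and 1255 of its 35116 windows (3.57%). The sequences below belong to the members that both held the letters and differed between the groups at an adjusted p under 0.05, as described gene by gene further on, with the matches in capitals. They are printed 5′ to 3′ on the strand of the gene, and matches on the other strand therefore read TTTC, 2 bases, TTTC.
ISG15, chr1:1013357-1013426, plus strand, -140 to -71 from the start: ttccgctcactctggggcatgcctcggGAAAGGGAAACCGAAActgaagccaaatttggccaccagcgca
DDX60, chr4:168318783-168318852, minus strand, -100 to -31 from the start: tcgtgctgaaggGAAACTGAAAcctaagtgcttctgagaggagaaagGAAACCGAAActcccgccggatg
BST2, chr19:17405718-17405787, minus strand, -157 to -88 from the start: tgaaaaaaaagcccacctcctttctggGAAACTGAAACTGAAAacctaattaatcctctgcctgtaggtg
IFITM3, chr11:320864-320933, minus strand, -73 to -4 from the start: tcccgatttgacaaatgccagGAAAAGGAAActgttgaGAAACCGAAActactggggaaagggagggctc
OAS3, chr12:112938331-112938471, plus strand, -143 to -3 from the start: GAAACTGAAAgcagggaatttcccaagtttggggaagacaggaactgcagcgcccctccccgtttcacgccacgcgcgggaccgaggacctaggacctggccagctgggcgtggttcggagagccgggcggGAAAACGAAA
PARP14, chr3:122680780-122680838, plus strand, -59 to -1 from the start: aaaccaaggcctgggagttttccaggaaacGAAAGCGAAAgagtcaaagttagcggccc
PARP9, chr3:122564302-122564371, minus strand, -71 to -2 from the start: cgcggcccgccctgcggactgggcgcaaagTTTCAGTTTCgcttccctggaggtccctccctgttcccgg
SAMD9, chr7:93118076-93118145, minus strand, -166 to -97 from the start: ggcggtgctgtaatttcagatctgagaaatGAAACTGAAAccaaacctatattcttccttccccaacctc
LGALS3BP, chr17:78979942-78980011, minus strand, -88 to -19 from the start: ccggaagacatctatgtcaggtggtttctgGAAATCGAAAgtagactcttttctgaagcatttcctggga

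ISG15 and BST2 each held a pair of matches that overlap in 1 run, and DDX60 and IFITM3 a pair set apart by other bases. PARP9 and DTX3L are neighbours that are read in opposite directions, and the letters shown for PARP9 (chr3:122564332-122564341) are the same genomic bases that run from 6 bases before to base 4 of the start of DTX3L. A match describes letters only and says nothing on whether a factor was bound there.

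Levels in these cultures were low for most of the list. On the per-length FPKM scale, the mean over the 6 libraries was at least 1 in 23 members and under 1 in 19. LGALS3BP, a secreted glycoprotein, stood highest at 180.6 FPKM, followed by BST2 at 84.1, IFITM3 at 35.5 and ISG15 at 14.5 FPKM. DTX3L (9.73), IFI35 (8.25) and SAMD9 (8.15 FPKM) came next, and the other 16 members with a mean of at least 1 lay between 1.24 FPKM for OAS1 and 4.94 FPKM for STAT2.

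**Figure D1:**
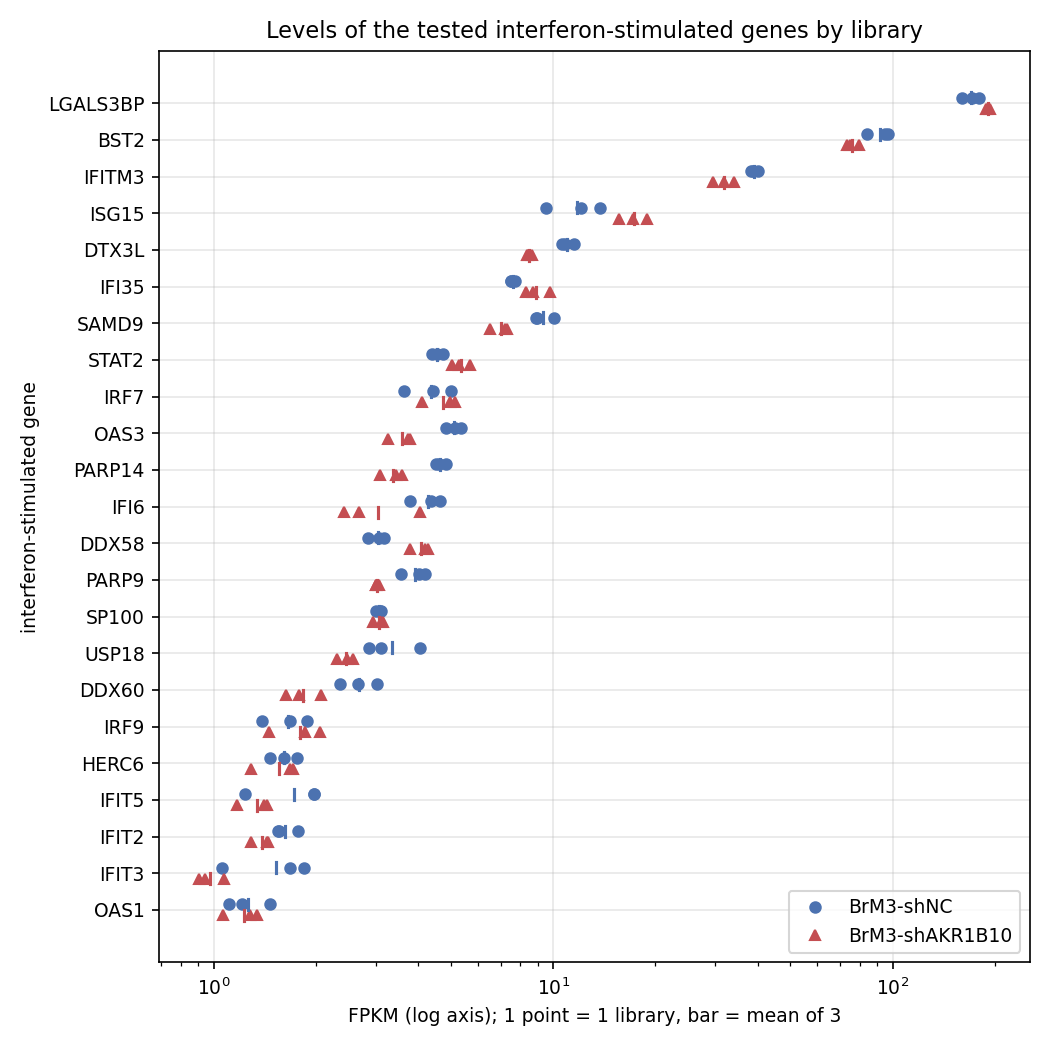
FPKM on a log axis for the 23 members with a mean of at least 1 FPKM, ordered by mean level, with 1 point for each library (circles BrM3-shNC, triangles BrM3-shAKR1B10) and a short bar at each group mean. Mean levels run from 1.24 FPKM for OAS1 to 180.6 FPKM for LGALS3BP, and the triangles lie left of all circles for 10 genes, BST2 and IFITM3 among them, and right of all circles for ISG15, DDX58, IFI35, STAT2 and LGALS3BP.

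The list did not move as 1 block. Of the 23 members tested with limma on log2(FPKM + 0.1), 1 fell (DDX60) and 1 rose (ISG15) at a Benjamini-Hochberg adjusted p under 0.05 with a log2 fold change beyond 0.5 either way, or 4.35% in each direction, against 7.45% lower and 5.83% higher among all 13150 genes tested. Most differences were smaller than this fold limit, since 19 of the 23 lay within 0.5 of zero. With no limit on the fold, 9 members (39.1%) were lower and 5 (21.7%) higher at an adjusted p under 0.05, against 23.1% lower and 19.4% higher among all genes. The 5 higher were 2 without BrM3-shAKR1B10 replicate 1 or 2 or BrM3-shNC replicate 2, 3 without BrM3-shAKR1B10 replicate 3 or BrM3-shNC replicate 1, and 2 with no filter on low values, whereas the 9 lower were 7 to 10 without 1 library. The group ranges were apart downwards for 10 members (43.5%, against 29.2% of all genes) and upwards for 5 (21.7%, against 25.5%). The fold change was below 0 for 16 members (69.6%), against 51.6% of all genes, and its median was -0.27 against -0.01. These shares describe the list and were not tested against other genes. Shares of all genes without 1 library or with no filter were not computed.

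**Figure D2:**
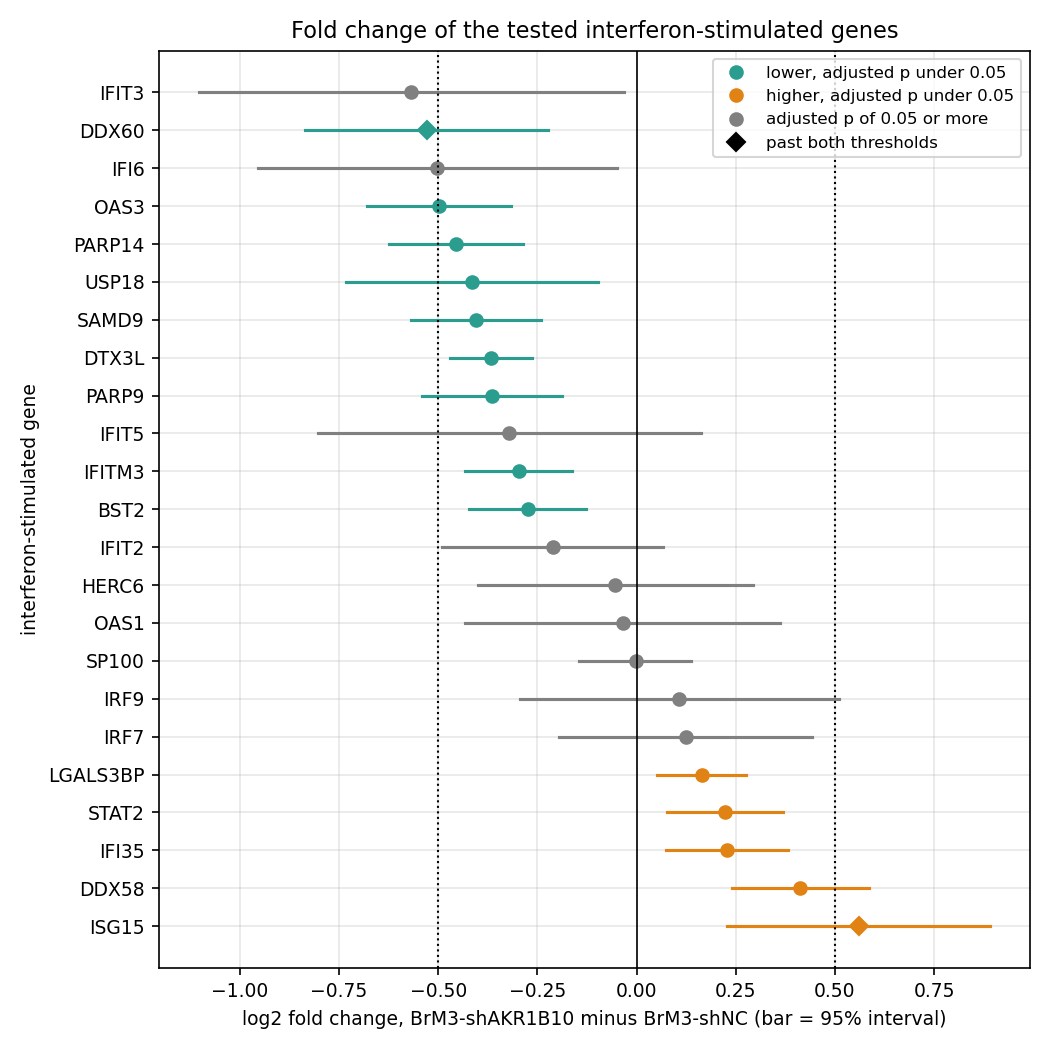
Log2 fold change of BrM3-shAKR1B10 against BrM3-shNC for the 23 tested members, with 95% intervals from the limma fit and dotted lines at the fold limit of 0.5 in either direction. Only DDX60 (-0.53) and ISG15 (0.56) are diamonds, past both thresholds, and 9 members are lower and 5 higher at an adjusted p under 0.05.

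Among the sensors of viral RNA, 1 fell, 1 was higher and 1 lay under the level tested. DDX60 (ENSG00000137628, chr4:168216293-168318807, minus strand), a helicase that assists RNA sensing, fell from 2.35, 3.02 and 2.66 FPKM in BrM3-shNC to 1.63, 2.07 and 1.78 FPKM in BrM3-shAKR1B10. Every silenced library lay below every control library, the mean was 68.1% of the control, and the log2 fold change was -0.53 (SE 0.128, adjusted p = 0.0165). Without BrM3-shAKR1B10 replicate 1 or BrM3-shNC replicate 2 the call was lost (adjusted p = 0.0510 and 0.0514).

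DDX58, which encodes the sensor RIG-I, stood at 4.26, 4.17 and 3.78 FPKM in BrM3-shAKR1B10 against 3.18, 2.85 and 3.07 FPKM in BrM3-shNC. The silenced libraries were all above the controls, with a log2 fold change of 0.41 (SE 0.0721, adjusted p = 0.00449), under the fold limit. IFIH1, which encodes the related sensor MDA5, had 48, 48 and 62 reads with AKR1B10 silenced and 71, 71 and 93 without. Its mean was 0.579 against 0.859 FPKM, in the opposite direction to DDX58 and with no overlap between the groups, and it was not part of the test because its mean over all libraries was under 1 FPKM.

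Of the 4 transcription factors on the list, only STAT2 differed at an adjusted p under 0.05. STAT2, a part of the complex that binds the ISRE, measured 5.68, 5.29 and 5.03 FPKM in BrM3-shAKR1B10 and 4.38, 4.53 and 4.74 FPKM in BrM3-shNC. The groups did not overlap and the log2 fold change was 0.22 (SE 0.0614, adjusted p = 0.0258). The adjusted p was up to 0.0752 when BrM3-shAKR1B10 replicate 1 or 2 or BrM3-shNC replicate 1 or 2 was left out. Its DNA-binding partner IRF9 measured 1.85, 2.06 and 1.46 FPKM in the silenced libraries and 1.88, 1.39 and 1.68 FPKM in the controls. The ranges overlapped, with a log2 fold change of 0.11 (95% interval -0.29 to 0.51), and 48.4% of its exonic bases are shared with another gene on the same strand.

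IRF7, the factor that drives interferon genes themselves, stood at 5.13, 4.11 and 4.96 FPKM in BrM3-shAKR1B10 against 3.63, 4.43 and 4.98 FPKM in BrM3-shNC. The ranges overlapped, and the interval of its log2 fold change ran from -0.19 to 0.44. IRF1, a factor also induced by interferon gamma, had 123, 81 and 87 reads with AKR1B10 silenced and 93, 113 and 106 without, all under 1 FPKM and overlapping.

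The IFIT proteins, which bind foreign RNA ends, were low and none passed the test. IFIT3 had the most negative fold change of the 23 members, -0.57 (SE 0.224), with 0.902 to 1.07 FPKM in BrM3-shAKR1B10 and 1.06 to 1.84 FPKM in BrM3-shNC. The ranges touched through BrM3-shNC replicate 3 and the adjusted p was 0.0832, whereas without that library it was 0.0155. IFIT3 also passed both thresholds in limma's voom fit on recovered reads (-0.60, adjusted p = 0.0418) and with protein-coding genes only (adjusted p = 0.0246). IFIT2 (log2 fold change -0.21) and IFIT5 (-0.32) had adjusted p of 0.190 and 0.245, and IFIT5 reached -0.53 (adjusted p = 0.0345) without BrM3-shNC replicate 2. IFIT1 lay under 1 FPKM, with 43 to 66 reads in the silenced libraries and 69 to 91 in the controls, which did not overlap.

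OAS1, OAS2 and OAS3 make the second messenger that activates RNase L, and OASL is a relative without this activity. Of the 2 tested, OAS3 was lower. OAS3 measured 3.25 to 3.78 FPKM in BrM3-shAKR1B10 against 4.82 to 5.34 FPKM in BrM3-shNC, a mean of 70.4% of the control. Its log2 fold change was -0.50 (SE 0.0757, adjusted p = 0.00256), just short of the fold limit, which it passed without BrM3-shAKR1B10 replicate 1 or 2 or BrM3-shNC replicate 3 (-0.53 to -0.54). OAS1, its neighbour on chromosome 12, had overlapping ranges of 1.06 to 1.34 and 1.11 to 1.47 FPKM and a log2 fold change of -0.04 (95% interval -0.43 to 0.36). OAS2, in the same cluster, had between 2 and 9 reads, and OASL had 14 to 35 reads in BrM3-shAKR1B10 against 31 to 39 in BrM3-shNC.

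Of the 4 antiviral membrane proteins, IFITM3 and BST2 were lower by small steps, and the other 2 were too low to test. IFITM3, which blocks virus fusion, measured 29.6, 34.2 and 31.8 FPKM in BrM3-shAKR1B10 against 38.8, 38.2 and 40.2 FPKM in BrM3-shNC. The groups did not overlap and the log2 fold change was -0.30 (SE 0.0565, adjusted p = 0.00640). BST2 (tetherin), which holds budding virions on the cell surface, stood at 74.9, 79.6 and 73.6 FPKM against 84.2, 97.0 and 95.1 FPKM. Here too every silenced library was below every control, with a log2 fold change of -0.27 (SE 0.0615, adjusted p = 0.0123) and a mean of 82.6% of the control.

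The sister genes IFITM1 and IFITM2 were close to the limit of detection, with 0 to 14 and 0 to 6 reads. IFITM2 had 4, 6 and 3 reads in BrM3-shAKR1B10 against 3, 1 and 0 in BrM3-shNC, which touch at 3 reads, and IFITM1 overlapped between the groups. They share 351 exonic bases with each other and closely resemble IFITM3, so how reads were divided among the 3 is uncertain. MX1 and MX2, dynamin-like GTPases, were also under 1 FPKM. MX2 had 24 to 29 reads in the silenced libraries against 34 to 41 in the controls, and MX1 had 48 to 94 against 62 to 64.

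The ISG15 system held members in both directions. ISG15 (ENSG00000187608, chr1:1001138-1014540, plus strand), a ubiquitin-like protein that is attached to other proteins, rose from 12.1, 13.8 and 9.49 FPKM in BrM3-shNC to 18.9, 15.7 and 17.1 FPKM in BrM3-shAKR1B10. Every silenced library was above every control, the mean was 146.6% of the control, and the log2 fold change was 0.56 (SE 0.139, adjusted p = 0.0178). The call was lost without BrM3-shAKR1B10 replicate 1 (adjusted p = 0.0594), BrM3-shAKR1B10 replicate 3 (adjusted p = 0.0510) or BrM3-shNC replicate 3 (log2 fold change 0.41).

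USP18, the protease that removes ISG15 and also damps the interferon receptor, had the opposite direction, with 2.30 to 2.58 FPKM in BrM3-shAKR1B10 and 2.86 to 4.06 FPKM in BrM3-shNC (log2 fold change -0.42, SE 0.133, adjusted p = 0.0436). The adjusted p passed 0.05 on leaving out any 1 library other than BrM3-shNC replicate 3, without which USP18 passed both thresholds (-0.52, adjusted p = 0.0290). With all libraries kept, it was also above 0.05 with no filter on low values (0.103), TPM scaling (0.0684) and limma without trend (0.0551). HERC5, the main ligase that attaches ISG15, lay under 1 FPKM, with 32, 60 and 47 reads when AKR1B10 was silenced and 88, 69 and 86 when it was not. HERC6, its paralog, had overlapping ranges and a log2 fold change of -0.05 (95% interval -0.40 to 0.29), and TRIM22, another ubiquitin ligase, had at most 7 reads.

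PARP9, DTX3L and PARP14 were lower in all silenced libraries than in any control. PARP9 and DTX3L form a complex that ADP-ribosylates and ubiquitinates proteins, and all 3 genes lie within a short stretch of chromosome 3. DTX3L measured 8.44, 8.63 and 8.38 FPKM in BrM3-shAKR1B10 against 10.8, 10.6 and 11.5 FPKM in BrM3-shNC, with a log2 fold change of -0.37 (SE 0.0430, adjusted p = 0.000856), the smallest adjusted p of the list. PARP9 reached at most 3.06 FPKM against 3.55 to 4.20 FPKM, with a log2 fold change of -0.36 (adjusted p = 0.00823), and PARP14 ranged from 3.08 to 3.57 FPKM against 4.50 to 4.85 FPKM (log2 fold change -0.46, adjusted p = 0.00281). PARP9 and DTX3L share 217 exonic bases on opposite strands. The paper's library protocol names no step that marks the strand, so how reads there were assigned is uncertain.

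SAMD9, a restriction factor against poxviruses, measured 6.51, 7.29 and 7.20 FPKM in BrM3-shAKR1B10 against 10.1, 8.95 and 8.90 FPKM in BrM3-shNC. The groups did not overlap and the log2 fold change was -0.41 (SE 0.0685, adjusted p = 0.00391). Its paralog and neighbour SAMD9L had 46 to 81 reads in BrM3-shAKR1B10 against 66 to 111 in BrM3-shNC, overlapping and under 1 FPKM. The viral inhibitor RSAD2 (viperin) and its neighbour CMPK2, a nucleotide kinase, are listed at 0 in all 6 libraries. TREX1, a DNA exonuclease that many cell types express and that was looked up after its value was seen, is also listed at 0 in all of them, so no limit on expression was read from a 0. ISG20, an RNA exonuclease, had 22 to 30 reads against 33 to 39.

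The IFI genes, named only for their induction, were mixed. IFI35 stood at 8.29, 8.70 and 9.77 FPKM in BrM3-shAKR1B10 against 7.71, 7.52 and 7.53 FPKM in BrM3-shNC, higher in every silenced library (log2 fold change 0.23, SE 0.0646, adjusted p = 0.0288). The adjusted p was up to 0.0759 without BrM3-shAKR1B10 replicate 2 or any 1 of the controls. IFI6, a mitochondrial protein linked to cell survival, ranged from 2.41 to 4.03 FPKM against 3.78 to 4.62 FPKM, with a log2 fold change of -0.50 (SE 0.189, adjusted p = 0.0725). Its overlap came from BrM3-shAKR1B10 replicate 2, without which the log2 fold change was -0.72 (adjusted p = 0.00568). IFI44 had 12, 26 and 14 reads with AKR1B10 silenced and 33, 47 and 36 without, and IFI27 and IFI44L had at most 6 reads.

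LGALS3BP, the most abundant member, measured 193.9, 189.6 and 188.9 FPKM in BrM3-shAKR1B10 against 160.1, 171.1 and 180.2 FPKM in BrM3-shNC. It was higher in every silenced library, by 0.16 on the log2 scale (SE 0.0468, adjusted p = 0.0294), with 10369 to 12279 reads in a library. The adjusted p was up to 0.0898 without any 1 of the silenced libraries or BrM3-shNC replicate 2. SP100, a nuclear body protein, was level at 2.94 to 3.15 and 3.01 to 3.11 FPKM, with a 95% interval of the log2 fold change from -0.14 to 0.14. XAF1, an antagonist of apoptosis inhibitors, had at most 1 read in a library.

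Of the 19 members under a mean of 1 FPKM, 10 had more than 3 reads in every library. The mean was lower in BrM3-shAKR1B10 for 15 of the 19 and higher for 2, MX1 and IFITM2. Some of the 15 rest on few reads, such as XAF1 with 2 and IFI44L with 16 over all libraries. The share of all genes under 1 FPKM with a lower mean was not computed. The groups did not overlap downwards for IFIH1, IFIT1, MX2, HERC5, ISG20 and IFI44, and upwards for IFITM2, whose groups touch at 3 reads and differ there only by library size (0.110 against 0.106 FPKM). These are 35.3% and 5.88% of the 17 low members with any read, against 4.8% lower and 9.02% higher among the 18433 genes under 1 FPKM with any read. Of the 12 low members with a mean above 3 reads, 6 were apart downwards and none upwards, against 10.6% and 17.5% of the 6583 such genes, and these shares were not tested. In a limma fit with no filter on low values, 17 of the 19 could be tested, with 4 at an unadjusted p under 0.05. The share of all genes at that p in this fit was not computed. None of the 17 reached an adjusted p under 0.05. IFI44 came nearest (log2 fold change -1.06, adjusted p = 0.0721), followed by HERC5 (-0.73, adjusted p = 0.102).

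Members with and without the promoter letters are described side by side. Of the 20 tested members with a promoter entry, 13 held the letters, and of these 8 were lower, 2 higher (ISG15 and LGALS3BP) and 3 neither at an adjusted p under 0.05, with a median log2 fold change of -0.37. That is 61.5% lower and 15.4% higher, against 23.1% and 19.4% of all genes tested. The other 7, DDX58, HERC6, IFI35, IRF9, OAS1, SP100 and STAT2, had no match in this window. Of these none was lower, 3 were higher (DDX58, IFI35 and STAT2, 42.9%) and 4 were neither, with a median of 0.11. Without BrM3-shAKR1B10 replicate 2, BrM3-shNC replicate 1 or BrM3-shNC replicate 2, or with no filter on low values, only DDX58 of these 3 kept an adjusted p under 0.05. The split was seen after the values were known and is given as a description with no test, and PARP9 and DTX3L count as 2 genes in it although their matches are the same bases. Of the 14 low members with an entry, 10 held the letters.

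**Figure D3:**
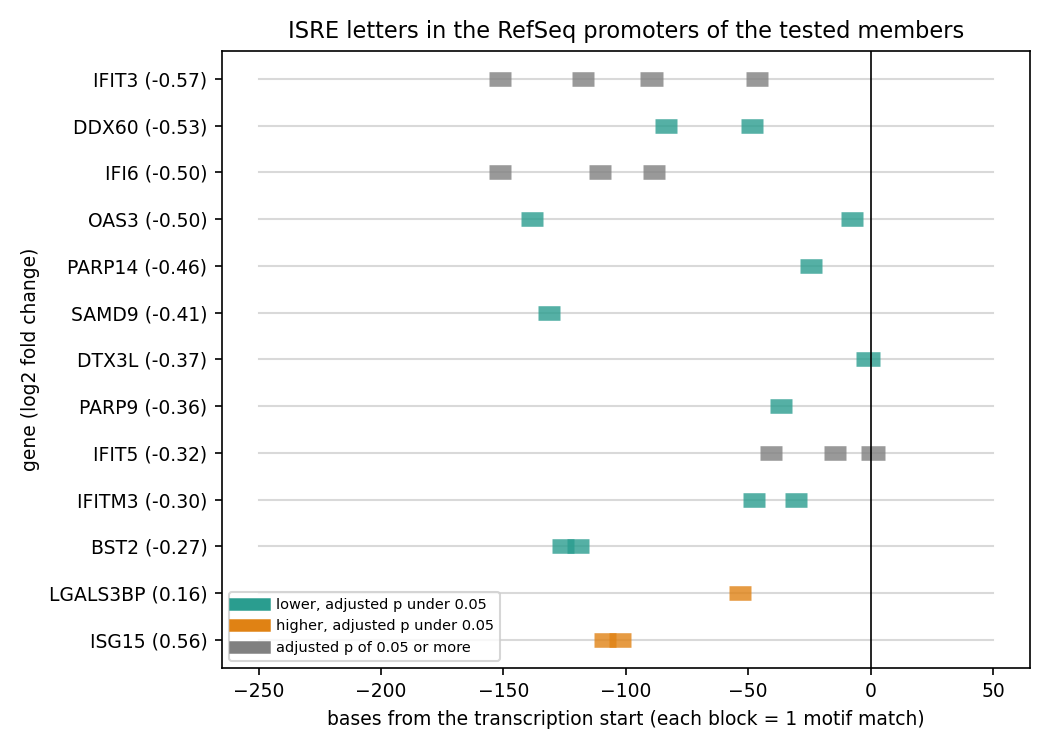
Positions of the ISRE letters in the RefSeq promoters of the 13 tested members that hold them, in bases from the transcription start (0), with each block 1 match, genes ordered by their log2 fold change and IFIT3 drawn with the matches of both its starts. All matches lie between -156 and 6 bases from the start, and the 2 members that were higher, ISG15 and LGALS3BP, hold the letters as the 8 lower ones do.

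Along the pathway that drives these genes, few steps passed the fold limit. A list of 112 other genes of the interferon system held 66 with a mean of at least 1 FPKM, of which 1 fell and 1 rose past both thresholds (1.52% each, against 7.45% and 5.83% of all genes). At an adjusted p under 0.05 with no fold limit, 14 (21.2%) were lower and 11 (16.7%) higher, against 23.1% and 19.4% of all genes, with a median log2 fold change of -0.03. UBE2L6 stands in both a list of regulators and that of further interferon-stimulated genes and is counted once here. Of 21 interferon ligands only IFNE, an interferon that epithelia make without infection, passed 1 FPKM, and 10 are listed at 0 in all libraries. IFNE rose from 1.66, 1.28 and 1.56 FPKM in BrM3-shNC to 4.76, 4.58 and 4.36 FPKM in BrM3-shAKR1B10, or 304% of the control mean (log2 fold change 1.55, SE 0.105, adjusted p = 9.4e-05). On this log2(FPKM + 0.1) scale the fold change was larger than that of any of the 23 tested members, and it kept its call without each library in turn (1.45 to 1.62). IFNB1, the interferon beta gene, had at most 1 read in a library.

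Of the receptor chains, IFNAR1 measured 6.93, 6.12 and 6.05 FPKM in BrM3-shAKR1B10 against 5.14, 5.12 and 4.82 FPKM in BrM3-shNC (log2 fold change 0.33, SE 0.0657, adjusted p = 0.00730). Its partner IFNAR2 was under the level tested, at 0.0368 to 0.183 FPKM against 0.0769 to 0.226 FPKM. Exon overlap with other genes was looked up for the members of the main list only, so no limit on IFNAR2 expression was read from this level. The kinases JAK1 (log2 fold change 0.09, adjusted p = 0.133) and TYK2 (0.07, adjusted p = 0.245) did not pass the test. Receptors and kinases as a list had 5 of 9 genes tested, with 1 (20%) higher and none lower at an adjusted p under 0.05, against 19.4% and 23.1% of all genes.

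Of the sensors and adaptors upstream of interferon, 6 of the 15 tested (40%) were lower and 1 (6.67%) higher at an adjusted p under 0.05, against 23.1% and 19.4% of all genes, with log2 fold changes between -0.44 and 0.22. IRF3, the factor that switches on interferon genes after sensing, was among the 6, at 46.1, 43.3 and 46.2 FPKM in BrM3-shAKR1B10 against 48.6, 54.7 and 58.2 FPKM in BrM3-shNC (log2 fold change -0.25, SE 0.0685, adjusted p = 0.0261). Its adjusted p was up to 0.0817 on leaving out any 1 library other than BrM3-shNC replicate 1. Of the 6, MYD88, TRIM25 and RNF135 also rose above 0.05 without some library (up to 0.116, 0.0927 and 0.0606). CGAS and SAMHD1 stayed under 0.05 without each library in turn. MAVS, the 1 that was higher, reached 0.0729. Of 5 tested transcription factors outside the main list, 1 was lower and 1 higher at an adjusted p under 0.05, against 23.1% and 19.4% of all genes. A list of 12 regulators, mostly negative but with the ISG15-attaching enzymes UBA7 and UBE2L6 among them, had 10 tested, with 1 (10%) lower and 3 (30%, UBA7 included) higher. Among 43 further interferon-stimulated genes, 31 were tested, with 6 (19.4%) lower and 4 (12.9%) higher and a median of -0.03. LAMP3, a lysosomal membrane protein, was the only 1 of them to pass both thresholds, and fell from 1.43, 1.66 and 1.22 FPKM to 0.771, 0.784 and 0.768 FPKM (log2 fold change -0.80, SE 0.172, adjusted p = 0.0104).

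**Figure D4:**
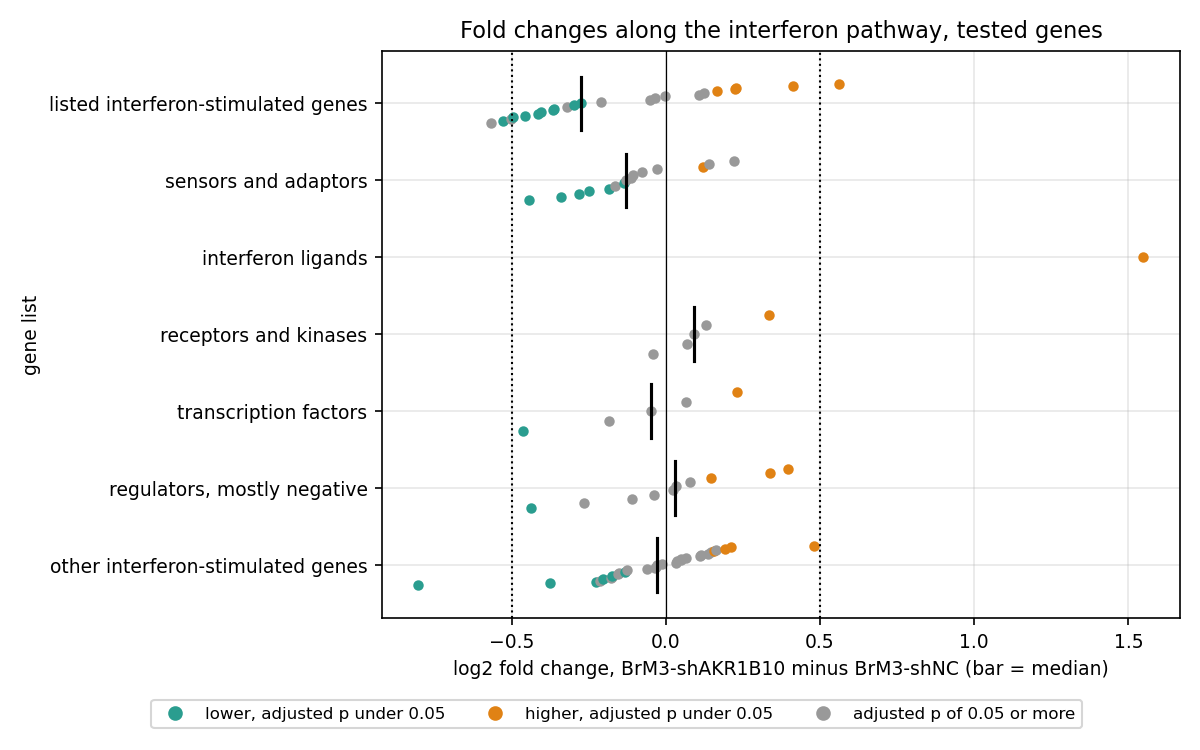
Log2 fold change of BrM3-shAKR1B10 against BrM3-shNC for every tested gene of the main list and of 6 other lists of the interferon system, with 1 point for each gene, a bar at each median and dotted lines at the fold limit of 0.5. The main list has its median at -0.27 and the further interferon-stimulated genes at -0.03, and IFNE stands alone at 1.55.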

How the data were processed

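PC9-BrM3 cells carrying shRNA against AKR1B10 (vector 1 per the paper's legends) or negative control shRNA were compared, 3 libraries each, grouped by the sample labels. The labels do not say whether the libraries came from separate cultures, so p-values measure the spread between libraries only. The authors purified mRNA with poly-T beads, sequenced pairs of reads, aligned them with HISAT2 2.0.5 and counted them with featureCounts 1.5.0-p3. They deposited FPKM per gene, unpooled. The build and the handling of strand and of reads on several genes are not given in the sources used here, but all 58735 genes match GENCODE 29 (GRCh38) by identifier, position and strand.

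Reads were recovered from FPKM and gene length (100% of values whole within 0.05). Genes with a mean of at least 1 FPKM, 13150 in all, were compared on log2(FPKM + 0.1), a scale that understates changes of low genes, with limma 3.58.1 (lmFit, eBayes with trend) in R 4.3.3 and Benjamini-Hochberg adjustment over all of them. A gene was called when the adjusted p was under 0.05 and the log2 fold change beyond 0.5 in either direction, the study's thresholds. An exact permutation test of 3 against 3 libraries cannot go below p = 0.1 and was not used. Scripts were tested on simulated data. The alternatives were other pseudocounts, filters, scalings, limma's voom on recovered reads, a replicate block, protein-coding genes only, other fold limits and each library left out.

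The members and lists were chosen with earlier results of these data known. Named are all 42 members, AKR1B10, IFNAR1, IFNAR2, JAK1, TYK2, IRF3, the ligands as a list and every other pathway gene called, with values in each library for members that were called, are sensors or transcription factors, or have a mean of at least 5 FPKM. Others were named after their values were seen. The values of 1 further gene that this rule names are left out. Promoters came from RefSeq, and 8 members without an entry (IFIT2, IFITM2, IRF7, MX2, OAS2, OASL, TRIM22 and USP18) were not searched. DDX58 was matched as RIGI. Exons of 16 members overlap another gene. Tables were made in Python 3.11.15 with pandas 2.3.3, numpy 2.4.6, scipy 1.17.1 and matplotlib 3.10.9.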

Additional observations from a re-analysis of the deposited data

How the results depend on the processing

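The log2 fold changes of single genes were computed under each alternative, and leaving aside the 2 that only move the fold limit, 379 values kept their direction and their call by fold and adjusted p together, 12 newly passed both thresholds, 7 no longer did and 9 changed sign. Genes under the fold limit could cross the adjusted p alone, which these counts do not show. The sign changed for genes near 0, with ranges without 1 library of -0.0035 to 0.2409 for IRF9, -0.1165 to 0.0705 for OAS1, -0.1218 to 0.0695 for HERC6 and -0.0225 to 0.0273 for SP100, which stood at 0.034 with TPM scaling. Members that fell (1) numbered 0 with a pseudocount of 1 (limma, 11 at an unadjusted p under 0.05), 0 with a mean of at least 5 FPKM (4 at an unadjusted p under 0.05), 0 with a fold limit of 1 (11), 2 with a pseudocount of 0.01 (DDX60 and OAS3), 3 with voom, 3 with protein-coding genes only, 9 with no fold limit, and 1 to 4 without 1 library. Members that rose (1) numbered 0 with a fold limit of 1 (5 at an unadjusted p under 0.05), 5 with no fold limit and 0 to 1 without 1 library. Members lower at an adjusted p under 0.05 (9) numbered 4 with a mean of at least 5 FPKM, where 7 members were tested, and 7 to 10 without 1 library, and those higher (5) numbered 2 with no filter, 3 with a mean of at least 5 FPKM and 2 to 4 without 1 library. The other pathway genes that fell (1) numbered 0 with a pseudocount of 1 (19 at an unadjusted p under 0.05), 0 with a mean of at least 5 FPKM (15), 0 with a fold limit of 1 (19), 2 with no filter, 14 with no fold limit and 1 to 2 without 1 library, and those that rose (1) numbered 0 with a mean of at least 5 FPKM (9 at an unadjusted p under 0.05), 2 with TPM scaling, 2 with quantile normalization, 11 with no fold limit and 1 to 2 without 1 library. Same-numbered libraries of the groups did not deviate together (correlations of -0.0155, 0.0039 and 0.0038), and a fit with the replicate number as a block left 1 member called in each direction, 9 lower and 2 higher at an adjusted p under 0.05, without IFI35, LGALS3BP and STAT2. The causes of these shifts were not tested, other than fewer genes under a stricter filter. Low counts limit the 9 members with 3 reads or fewer in some library, and the cause of these counts was not tested.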

Other observations

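IFNE (chr9:21480839-21482313, GRCh38, minus strand) sits inside an intron of the noncoding host gene MIR31HG on the same strand, which was looked up after the value of IFNE was seen. MIR31HG measured 10.6, 8.33 and 11.1 FPKM in BrM3-shAKR1B10 against 6.58, 6.11 and 7.50 FPKM in BrM3-shNC, and rose by 0.56 on the log2 scale (SE 0.124, limma adjusted p = 0.0117), less than the 1.55 of IFNE. Without BrM3-shAKR1B10 replicate 3 or BrM3-shNC replicate 2 its log2 fold change was under the fold limit of 0.5, at 0.48 and 0.49. Whether the 2 values are linked was not tested.

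Among the 33 members with more than 3 reads in all 6 libraries, BrM3-shAKR1B10 replicate 2 was the highest silenced library for 21, replicate 1 for 9 and replicate 3 for 3, whereas replicate 2 was the highest for 32.4% of all genes tested. In BrM3-shNC the highest value fell on replicates 1, 2 and 3 for 12, 10 and 11 members. Without BrM3-shAKR1B10 replicate 2, 9 members were lower at an adjusted p under 0.05, 8 of them among those lower with all libraries, with IFI6 gained and USP18 lost, and 2 were higher.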
